A study of Homo sapiens with 9 samples.

Results

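Histone chaperones are proteins that hold histones on their way to and from DNA. A set of 10 of these genes was followed by symbol in a table of 63677 genes: ASF1A, ASF1B, CHAF1A, CHAF1B, NASP, HIRA, SUPT16H, SSRP1, SUPT6H and NAP1L1. All 10 were found on a primary chromosome, and a second row for HIRA on a patch sequence was left out. All 10 also reached the mean level of 10 normalized counts that was required for testing. Polyadenylated RNA came from HCT116, a human colon adenocarcinoma line, 48 h after the cells received siRNA (short RNA that silences a target) in a lipid reagent. The 9 libraries form 3 groups of 3: siControl (genotype labelled WT), siRNF40 (RNF40 knockdown) and siTG2 (TG2 knockdown). All groups are the same line and all were transfected, so each knockdown is read against control siRNA and not against untreated cells. RNF40 belongs to the E3 ligase that ubiquitinates histone H2B. The TG2 protein, a transglutaminase, is encoded by TGM2. The labels do not say whether the replicates were separate cultures, so p-values measure the spread between these libraries.

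As background, new nucleosomes are built in a relay. NASP guards a soluble pool of histones H3 and H4, the ASF1 proteins take dimers of H3 and H4 from it, and CAF-1 (CHAF1A, CHAF1B and RBBP4) deposits them behind replication forks. HIRA deposits the variant H3.3 outside replication, and NAP1L1 carries H2A and H2B. FACT (SUPT16H with SSRP1) and SPT6 (SUPT6H) take nucleosomes apart and rebuild them as RNA polymerase II passes, and FACT is known to work together with ubiquitinated H2B. ASF1B and the CAF-1 genes are known as genes of dividing cells, whereas ASF1A and HIRA are less tied to the cell cycle.

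Sequences of 2 kinds are shown. The first are the 250 bases before the start of ASF1B and of CHAF1A, which of the 10 genes changed most in siRNF40 and in siTG2, from RefSeq on GRCh38.p14, read 5′ to 3′ on the gene's strand. ASF1B is at chr19:14136590-14136839 on the minus strand and CHAF1A at chr19:4402390-4402639 on the plus strand. Capitals mark 3 words searched on both strands: the E2F words TTCCCGC and TTGGCGC, the CHR word TTTGAA (the cell cycle genes homology region) and the CCAAT box.
ASF1B: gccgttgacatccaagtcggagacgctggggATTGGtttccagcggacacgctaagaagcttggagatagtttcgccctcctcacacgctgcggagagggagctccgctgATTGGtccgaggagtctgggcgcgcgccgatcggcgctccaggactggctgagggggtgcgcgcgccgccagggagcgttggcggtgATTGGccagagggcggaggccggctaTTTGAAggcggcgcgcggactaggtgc
CHAF1A: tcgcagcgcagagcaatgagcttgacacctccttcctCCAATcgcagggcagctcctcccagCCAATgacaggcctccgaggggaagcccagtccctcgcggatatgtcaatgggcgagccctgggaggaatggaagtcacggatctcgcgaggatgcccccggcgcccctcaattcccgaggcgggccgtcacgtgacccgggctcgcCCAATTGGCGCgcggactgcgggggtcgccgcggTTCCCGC

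The ASF1B window holds 1 CHR word, 22 to 27 bases before the start, and 3 CCAAT boxes, the nearest 49 to 53 bases before it. The CHAF1A window holds both E2F words, at 31 to 37 and at 1 to 7 bases before the start, and 4 CCAAT boxes. There the first E2F word shares bases with 2 of these boxes. An E2F word was found in 3 of the 10 windows (CHAF1A, HIRA and NAP1L1) and in 11.3% of 15045 promoters of tested protein-coding genes. The CHR word was found in 1 of 10 windows against 9%, the CCAAT box in 3 (ASF1B, CHAF1A and NASP) against 32.6%, and the GC box GGGCGG in 7 against 62%. ASF1A, CHAF1B, SUPT16H, SSRP1 and SUPT6H hold none of the E2F, CHR or CCAAT words in this window. The part of these words in the changes below was not tested. Such matches are letters in a window and not measured binding.

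The second kind are short 3′ UTR sites with the word GTCTTCA (capitals), from GENCODE 29 transcripts, shown for the siRNA target RNF40 and for the 2 chaperone genes that hold it there. That word was picked in an earlier look at these same libraries as the one most tied to lower transcripts in siRNF40, so its presence in genes that fell is not independent evidence.
ASF1B: gtgttcttttcGTCTTCAtaaattctaact
NASP: atatccacctaGTCTTCAcctggggctata
RNF40: tctcctcgtggGTCTTCAtacctaataaaa

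The ASF1B site begins 247 bases after the coding sequence in a 3′ UTR of 950 bases, and the NASP site at base 477 of 753. The other 8 chaperone genes lack the word in the 3′ UTR, and SUPT16H and SUPT6H hold it 1 time each in the coding sequence. Of 12846 protein-coding genes tested that have a 3′ UTR of at least 50 bases, 12.4% hold it in the 3′ UTR. Their median log2 fold change in siRNF40 was -0.36, against 0.02 for genes without it. The siRNA sequences were not analysed here, and the part of this word in the changes of ASF1B and NASP was not tested.

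The libraries held 29161285 to 35743918 reads in genes. Levels below are the authors' normalized counts, that is reads divided by a size factor for each library, and 1 read equals 0.88 to 1.1 of these units. RNF40 stood at 3004, 2784 and 2565 in siControl and at 535, 497 and 528 in siRNF40, and TGM2 at 559, 702 and 554 in siControl and at 59.4, 120.5 and 155 in siTG2, so each siRNA lowered its target. RNF40 was also lower in siTG2, at 82.8% of control (log2 fold change -0.27, adjusted p = 0.019 by limma). Setting the libraries to equal totals moved the median of all genes in siTG2 by 0.14. RNF40 under that scaling is not given here. Of 6 epithelial markers all but VIL1 reached a mean of 10. Their summed level was 86931 to 95401 (siControl), 129005 to 155853 (siRNF40) and 77584 to 88695 (siTG2). Of 5 fibroblast markers COL1A1 alone reached it, with DCN and LUM at 0 throughout, and the sums were 793 to 967, 1340.2 to 1664 and 975 to 1154 in the same order. None of 4 leukocyte and 3 red cell markers reached it, and the leukocyte sums were 11.4 to 14.4, 7.47 to 15.3 and 26.4 to 54.6, with CD3E at 0. The siTG2 libraries had 27123 to 27602 genes with a read, against 25162 to 25548 in the others, and their normalized values summed to 28807588 to 29454844 against 32122874 to 33219625. The part of these differences in the results was not tested.

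Of the 10 genes, ASF1B, CHAF1A and CHAF1B fell furthest in siRNF40, and the H2A-H2B chaperone NAP1L1 rose. ASF1B fell to 19.6% of control, CHAF1A to 47.1% and CHAF1B to 55.4%, while NASP, SUPT16H and ASF1A fell to 72 to 73% of control. HIRA, SSRP1 and SUPT6H did not pass the test. In siTG2 the same test called 6 genes lower and none higher, led by CHAF1A at 57.3% of control. In bulk RNA, fewer cells that express a gene and less RNA per cell cannot be told apart.

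**Figure D1:**
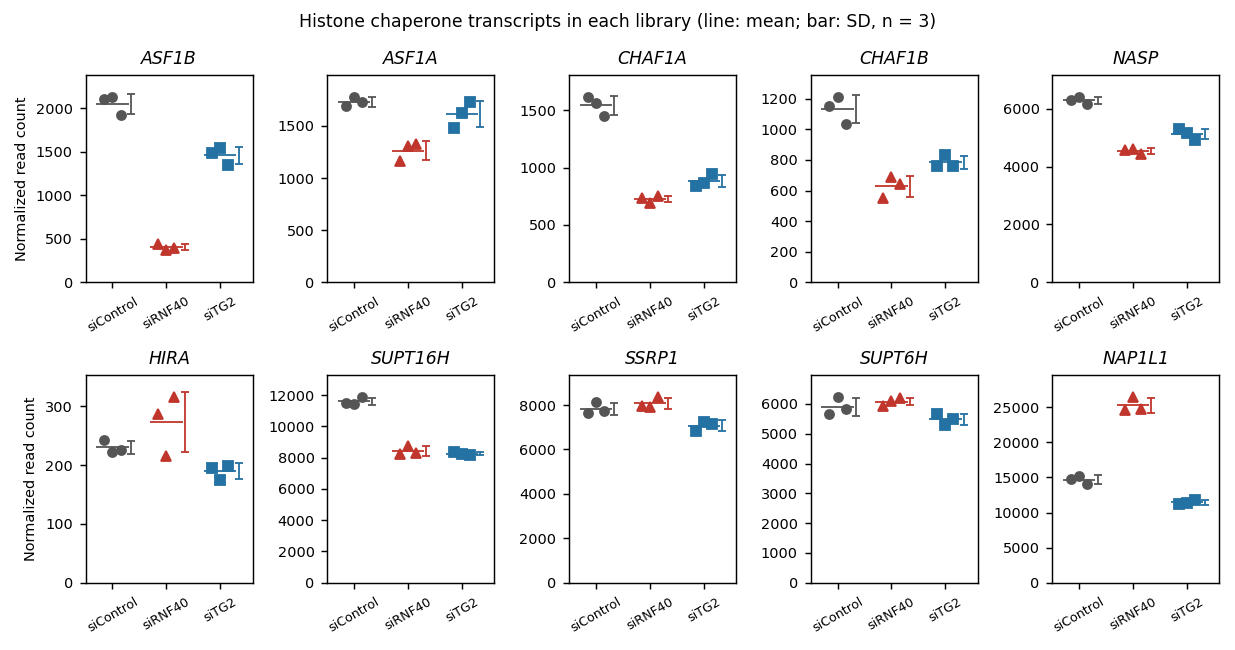
Each panel shows 1 gene, with the normalized read count of every library (vertical axis, from 0) in siControl (grey circles), siRNF40 (red triangles) and siTG2 (blue squares). Lines are means and bars are the SD over 3 libraries. ASF1B lies between 376 and 439 in siRNF40, below every other library, and NAP1L1 is highest in siRNF40 and lowest in siTG2.

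Among 17663 genes tested with limma on log2(value + 1), a call means a Benjamini-Hochberg adjusted p under 0.05 over all of them. Against siControl, siRNF40 changed 7 of the 10 chaperone genes, 6 lower and 1 higher, where 45.3% of all genes were called, 23.6% lower and 21.7% higher. The median log2 fold change was -0.46 over the 10 genes and 0.02 over all genes. For 7 of the 10 genes, all siRNF40 libraries lay on the same side of all siControl libraries, against 53.2% of all genes. In siTG2, 6 of 10 were called lower and 0 higher, where 31.3% of all genes were called, 18.5% lower and 12.8% higher. All 10 siTG2 log2 fold changes lay below 0 in this fit, from -0.80 to -0.10, so no p threshold could call any of them higher. On the same reads edgeR and DESeq2 also called 0 higher. The siTG2 median was -0.33 over the 10 genes and -0.01 over all, and 8 of 10 did not overlap with siControl, against 46.5% of all genes. Both comparisons use the same 3 control libraries.

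The scaling of the libraries bears on siTG2. When libraries were set to equal totals, the median of all genes moved by 0.14 on the log2 scale in siTG2 against siControl, and 32.8% of its calls were lower in place of 59.1%. Between the knockdowns the median moved by -0.17 and the share of lower calls went from 50% to 65.9%. Relative to the median of all genes, which equal totals leaves nearly as it was by construction, the NASP change in siTG2 was -0.29, and it was -0.14 with quantile normalization.

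The ASF1 paralogs come first in the relay. ASF1B (ENSG00000105011, hg19 chromosome 19, 14230321 to 14247768, minus strand) encodes the paralog tied to dividing cells. Its counts were 2104, 2131 and 1920 in siControl, 439, 375.5 and 391.7 in siRNF40, and 1480.1, 1542 and 1347 in siTG2. The groups are fully apart, with siTG2 in between. The means were 2052 ± 114 (SD, n = 3), 402 ± 32.7 and 1456 ± 99.9. The log2 fold change of ASF1B in siRNF40 was -2.35 (SE 0.091, limma adjusted p = 1.1e-12), and 0.527% of all genes tested had a larger change in either direction. It fell by 0.49 in siTG2 (SE 0.091, limma adjusted p = 0.00038). The direct contrast of siRNF40 with siTG2 was -1.86 (limma adjusted p = 7.3e-12).

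ASF1A (ENSG00000111875, hg19 chromosome 6, 119215384 to 119230332, plus strand) encodes the other paralog, which also serves HIRA. It had 1686, 1779 and 1725 counts in siControl and 1163, 1304 and 1325 in siRNF40, without overlap, a log2 fold change of -0.46 (SE 0.083, limma adjusted p = 0.00017). In siTG2 it had 1478, 1629 and 1730.0 counts, which overlaps siControl, and the log2 fold change was -0.10 (95% interval -0.28 to 0.07, limma adjusted p = 0.37). ASF1A lies across from MCM9 on the opposite strand. Whether the reads were counted by strand is not given in the sources used here, so reads in shared stretches may be less certain.

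CHAF1A (ENSG00000167670, hg19 chromosome 19, 4402659 to 4445015, plus strand) encodes the large subunit of CAF-1. Its counts were 1617, 1561 and 1449 in siControl, 732, 694 and 752 in siRNF40, and 840.4, 869 and 943 in siTG2. All 6 knockdown libraries lie below all 3 controls, and siRNF40 lies below siTG2. The log2 fold change was -1.09 in siRNF40 (SE 0.088, limma adjusted p = 1e-08) and -0.80 in siTG2 (SE 0.088, limma adjusted p = 1.1e-06). Of the 10 genes, CHAF1A had the largest change in siTG2, and 12.9% of all genes tested changed by more.

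CHAF1B (ENSG00000159259, hg19 chromosome 21, 37757676 to 37791313, plus strand) encodes the middle subunit of CAF-1. Its counts were 1152, 1213 and 1035 in siControl, 551, 688 and 644 in siRNF40, and 759, 834 and 762 in siTG2. As for CHAF1A, controls were highest and siRNF40 lowest, with no overlap between groups. The log2 fold changes were -0.85 in siRNF40 (SE 0.1, limma adjusted p = 1.6e-06) and -0.53 in siTG2 (SE 0.1, limma adjusted p = 0.00065). RBBP4, the small subunit of CAF-1, stood at 75.9% of control in siRNF40 (-0.40, limma adjusted p = 9.1e-05) and at 92% in siTG2 (-0.12, limma adjusted p = 0.20). CHAF1B shares part of its span with MORC3 on the same strand, and CHAF1A with UBXN6 on the opposite one.

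NASP (ENSG00000132780, hg19 chromosome 1, 46049518 to 46084566, plus strand) guards soluble H3 and H4. It had 6316, 6420.3 and 6157 counts in siControl, 4580.0, 4602 and 4432 in siRNF40, and 5300.4, 5168 and 4931 in siTG2. The 3 groups do not overlap, and their spread is small, with SDs of 133, 92.8 and 187. NASP fell by 0.47 in siRNF40 (SE 0.059, limma adjusted p = 2.8e-06). It had a log2 fold change of -0.30 in siTG2 (SE 0.059, limma adjusted p = 0.00083), a call that ended with equal totals (-0.15, adjusted p = 0.06) and with quantile normalization (-0.14, adjusted p = 0.08), with 2.9e-05 to 0.08 over all alternatives.

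HIRA (ENSG00000100084, hg19 chromosome 22, 19318221 to 19435224, minus strand) encodes the scaffold of the H3.3 deposition complex. It had the fewest reads of the 10 genes, with 243, 223 and 225 counts in siControl, 288, 216 and 316 in siRNF40, and 195, 174 and 199 in siTG2. Replicate 2 of siRNF40 lies below all controls and replicates 1 and 3 above them. All siTG2 libraries lie below all controls. Neither difference from siControl passed, with log2 fold changes of 0.23 in siRNF40 (95% interval -0.11 to 0.57, limma adjusted p = 0.27) and -0.28 in siTG2 (-0.62 to 0.06, limma adjusted p = 0.21). The siRNF40 value of HIRA was 0.39 without siRNF40 replicate 2 and 0.12 without siRNF40 replicate 3 (adjusted p = 0.063 and 0.64). Its SD was 51.3 in siRNF40 against 10.9 in siControl and 13.4 in siTG2. The fit uses 1 spread for all groups, so the siRNF40 libraries also widen the siTG2 interval. HIRA in siTG2 passed under none of the 17 alternatives (adjusted p = 0.061 to 0.55), which include the fit of only the 6 libraries compared. HIRA overlaps C22orf39 on its own strand and MRPL40 on the other.

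The 2 subunits of FACT changed by different amounts, and their levels lay closer to each other in both knockdowns than in siControl. SUPT16H (ENSG00000092201, hg19 chromosome 14, 21819631 to 21852425, minus strand), the subunit that grips H2A and H2B, had 11497, 11403 and 11868 counts in siControl. It had 8209.5, 8758 and 8269.8 in siRNF40 and 8347, 8212 and 8169.9 in siTG2. All 6 knockdown libraries lie below the controls and overlap each other. The log2 fold changes were -0.46 in siRNF40 (SE 0.056, limma adjusted p = 1.8e-06) and -0.49 in siTG2 (SE 0.056, limma adjusted p = 2e-06). With quantile normalization the siTG2 value of SUPT16H was -0.31 (adjusted p = 0.00024).

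SSRP1 (ENSG00000149136, hg19 chromosome 11, 57093459 to 57103351, minus strand), the HMG-box subunit of FACT, had 7635, 8134 and 7730.0 counts in siControl and 7945, 7908 and 8357 in siRNF40, which overlap. Its log2 fold change there was 0.04 (95% interval -0.08 to 0.17, limma adjusted p = 0.58). In siTG2 it had 6812, 7243 and 7164 counts, all below the controls, and the log2 fold change, -0.15, did not pass (95% interval -0.27 to -0.02, limma adjusted p = 0.064). It passed in a fit of only the 6 libraries compared, and without siRNF40 replicate 3 (adjusted p = 0.038 each), with 0.038 to 0.97 over all alternatives. The siTG2 value of SSRP1 was -0.0042 with equal totals and 0.05, with the sign turned, with quantile normalization.

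SUPT6H (ENSG00000109111, hg19 chromosome 17, 26989109 to 27029697, plus strand) encodes SPT6, the H3-H4 chaperone that travels with RNA polymerase II. It had 5649.8, 6231 and 5841 counts in siControl, 5948, 6092 and 6189.5 in siRNF40, and 5676, 5306 and 5501 in siTG2. Both knockdowns overlap siControl, with log2 fold changes of 0.04 (95% interval -0.09 to 0.17, limma adjusted p = 0.61) and -0.10 (-0.23 to 0.02, limma adjusted p = 0.21). With equal totals or quantile normalization the siTG2 values of SUPT6H and ASF1A lay slightly above 0. SUPT6H overlaps SDF2 on the opposite strand.

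NAP1L1 (ENSG00000187109, hg19 chromosome 12, 76438670 to 76478813, minus strand), the H2A-H2B carrier, was the one gene of the 10 called in opposite directions. It had 14796, 15238 and 13998 counts in siControl, 24628, 26477 and 24787 in siRNF40, and 11154, 11377 and 11841 in siTG2. The means were 14677 ± 628, 25297 ± 1025 and 11457 ± 350.5 (SD, n = 3), and no groups overlap. NAP1L1 rose by 0.79 in siRNF40 (SE 0.058, limma adjusted p = 3.3e-09) and fell by 0.36 in siTG2 (SE 0.058, limma adjusted p = 0.00011). The siTG2 value of NAP1L1 was smaller with equal totals (-0.21, adjusted p = 0.0074) and with quantile normalization (-0.16, adjusted p = 0.03), and still passed. The direct contrast was 1.14 (limma adjusted p = 1.2e-11). Its 3 listed pseudogenes had mean counts of 0.754 to 3.35, far below the parent gene.

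**Figure D2:**
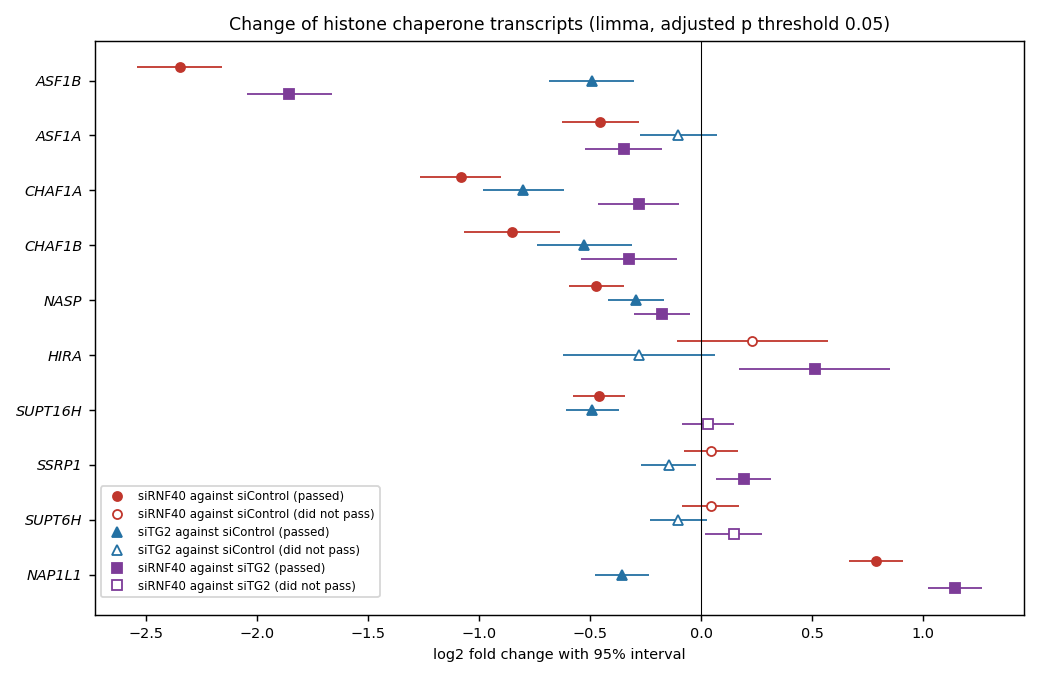
Log2 fold changes (horizontal axis) of the 10 genes with limma's 95% intervals, for siRNF40 against siControl (red circles), siTG2 against siControl (blue triangles) and siRNF40 against siTG2 (purple squares). Filled symbols passed the adjusted p threshold of 0.05 over all genes. ASF1B stands at -2.35 in siRNF40 and -0.49 in siTG2, and NAP1L1 at 0.79 and -0.36.

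The direct contrast of siRNF40 with siTG2 tests the difference between the knockdowns. It called 8 of the 10 genes, 5 lower and 3 higher in siRNF40, where 53.3% of all genes were called, 26.6% in each direction. Libraries did not overlap for 9 of 10 genes, against 58.3% of all genes. Beside ASF1B and NAP1L1, ASF1A was lower in siRNF40 by 0.35 (limma adjusted p = 0.0015), and that call held in all 17 alternatives. CHAF1A (-0.28, limma adjusted p = 0.011), CHAF1B (-0.33, 0.012) and NASP (-0.18, 0.017) were lower too. Each of these calls ended when 1 library was left out, which also makes its group smaller. Without siTG2 replicate 3 CHAF1A had -0.24 (adjusted p = 0.061, with 0.00017 to 0.061 over all alternatives). Without siRNF40 replicate 1 CHAF1B had -0.24 (0.073, with 0.00035 to 0.073), and without siTG2 replicate 1 NASP had -0.15 (0.068, with 5.3e-05 to 0.068).

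With equal totals the values of siRNF40 against siTG2 were -0.46 for CHAF1A, -0.50 for CHAF1B, -0.53 for ASF1A and -0.35 for NASP. The median of all genes moved by -0.17 there. Relative to the median of all genes these values were -0.27, -0.31, -0.34 and -0.16 in the main fit and with equal totals. With quantile normalization they were -0.32, -0.35, -0.42 and -0.28 relative to that median.

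HIRA (0.51, limma adjusted p = 0.013) and SSRP1 (0.19, 0.01) were higher in siRNF40 than in siTG2. The HIRA call ended with equal totals (0.33, adjusted p = 0.093) and without siRNF40 replicate 3 (0.40, 0.068), with 0.0023 to 0.093 over all alternatives. The SSRP1 call ended with equal totals (0.01, 0.86) and quantile normalization (0.02, 0.75), with 0.0057 to 0.86 overall. SUPT16H had 0.03 (95% interval -0.09 to 0.15, limma adjusted p = 0.7). Its sign turned and it was called lower in siRNF40 with equal totals (-0.15, adjusted p = 0.036) and with quantile normalization (-0.15, 0.02), with 0.02 to 0.99 overall. SUPT6H had 0.15 (limma adjusted p = 0.053).

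A ratio of 2 genes within a library does not depend on the scaling of that library. The log2 ratio of ASF1B to ASF1A was 0.32, 0.26 and 0.15 in the siControl libraries, -1.40, -1.79 and -1.76 in siRNF40, and 0.00, -0.08 and -0.36 in siTG2. The groups do not overlap, and the mean ratio differed from siControl by -1.90 in siRNF40 and by -0.39 in siTG2. The log2 ratio of SUPT16H to SSRP1 was 0.59, 0.49 and 0.62 in siControl, 0.05, 0.15 and -0.02 in siRNF40, and 0.29, 0.18 and 0.19 in siTG2. All knockdown libraries lie below the controls, by means of -0.51 and -0.34.

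For CAF-1 the log2 ratio of CHAF1A to CHAF1B was 0.49, 0.36 and 0.49 in siControl, 0.41, 0.01 and 0.23 in siRNF40, and 0.15, 0.06 and 0.31 in siTG2. The siRNF40 libraries overlap the controls (difference -0.23) and the siTG2 libraries do not (-0.28). A two-sided exact permutation test over 3 against 3 libraries gave p = 0.1, the smallest it can give, for 7 of 9 ratio differences (0.129 after Benjamini-Hochberg adjustment over the 9). The same exact test gave p = 0.2 for CAF-1 in siRNF40 (0.225 adjusted) and p = 0.8 between the knockdowns. None can pass 0.05 in this design.

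**Figure D3:**
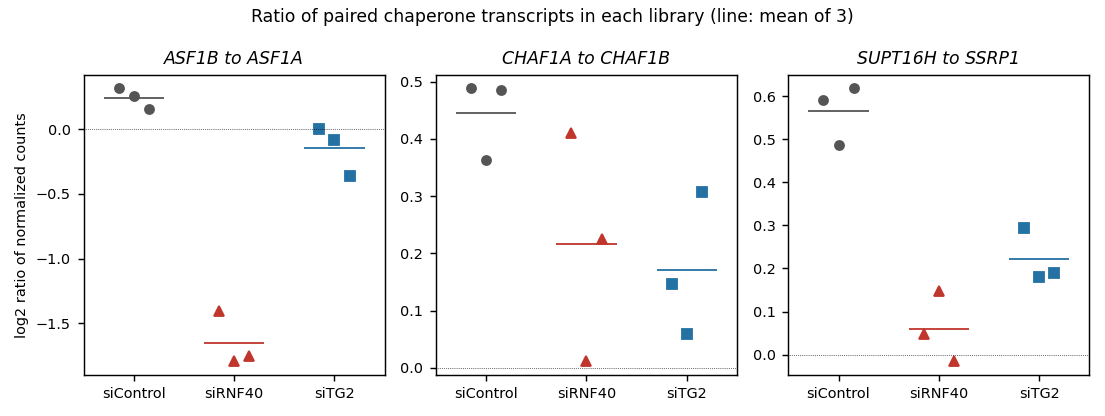
Log2 ratios of normalized counts (vertical axis, a different range in each panel) of ASF1B to ASF1A, CHAF1A to CHAF1B and SUPT16H to SSRP1, 1 point per library, with lines at the mean of 3. The ASF1B to ASF1A ratio has a mean of 0.24 in siControl and -1.65 in siRNF40. In the CAF-1 panel siRNF40 overlaps both other groups.

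Partners of these chaperones were read from a list of 14 genes, of which 13 reached the level tested and IPO4 did not. In siRNF40, 7 of 13 were lower and 2 higher (median -0.21), where 23.6% of all genes were lower and 21.7% higher. TLK2, a kinase of the ASF1 proteins, fell from 4587 ± 175 to 1906 ± 79.8 counts (-1.27, SE 0.065, limma adjusted p = 2.7e-11). TLK1, the other ASF1 kinase, fell by 0.89, and MCM2, the helicase subunit that holds H3 and H4 at the fork, by 0.91. In siTG2, 6 of 13 were lower and 1 higher (median -0.13), against 18.5% and 12.8% of all genes. With equal totals 3 were lower and 3 higher (median 0.02). All genes then had a median of 0.13, with 32.8% of their calls lower, so the partner median stayed below that of all genes. With quantile normalization 4 were lower and 3 higher (median -0.0017). All genes then had a median of 0.004, with 50.1% of their calls lower. MCM2 fell by 0.90, UBN1 of the HIRA complex by 0.63 and RBBP7, a histone-binding WD40 protein, by 0.38. Between the knockdowns 4 of 13 were lower and 4 higher in siRNF40, against 26.6% of all genes in each direction, with TLK2 (-1.03), TLK1 (-0.97) and UBN2 (-0.75), another subunit of the HIRA complex, the furthest apart. MCM2 did not pass there (SE 0.086, limma adjusted p = 0.98).

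A further list of 14 histone chaperones was tested in full. In siRNF40, 8 of 14 were lower and 4 higher (median -0.41), where 23.6% of all genes were lower and 21.7% higher. MMS22L, which with TONSL attends broken replication forks, fell from 2338 ± 163 to 834 ± 166 counts (-1.50, SE 0.11, limma adjusted p = 3.2e-09). HJURP, which loads the centromeric histone CENP-A, fell by 1.13, and NPM1, the abundant nucleolar chaperone, rose by 0.87. In siTG2, 7 of 14 were lower and 2 higher (median -0.18), against 18.5% and 12.8% of all genes. The counts were 4 lower and 3 higher with equal totals (median -0.03, against 0.13 over all genes). They were the same with quantile normalization (median -0.05, against 0.004 over all genes). SET, of the NAP1 family like NAP1L1, fell from 32353 ± 109 to 17784 ± 371 counts (-0.86, SE 0.054, limma adjusted p = 7.1e-10), ANP32B by 0.60 and MMS22L by 0.49. Between the knockdowns, 5 were lower and 4 higher in siRNF40, against 26.6% of all genes in each direction, with SET (1.18), MMS22L (-1.02) and NPM1 (0.96) the furthest apart. SET, like NAP1L1, was higher than control in siRNF40 (0.31, limma adjusted p = 9.3e-05) and lower in siTG2.

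**Figure D4:**
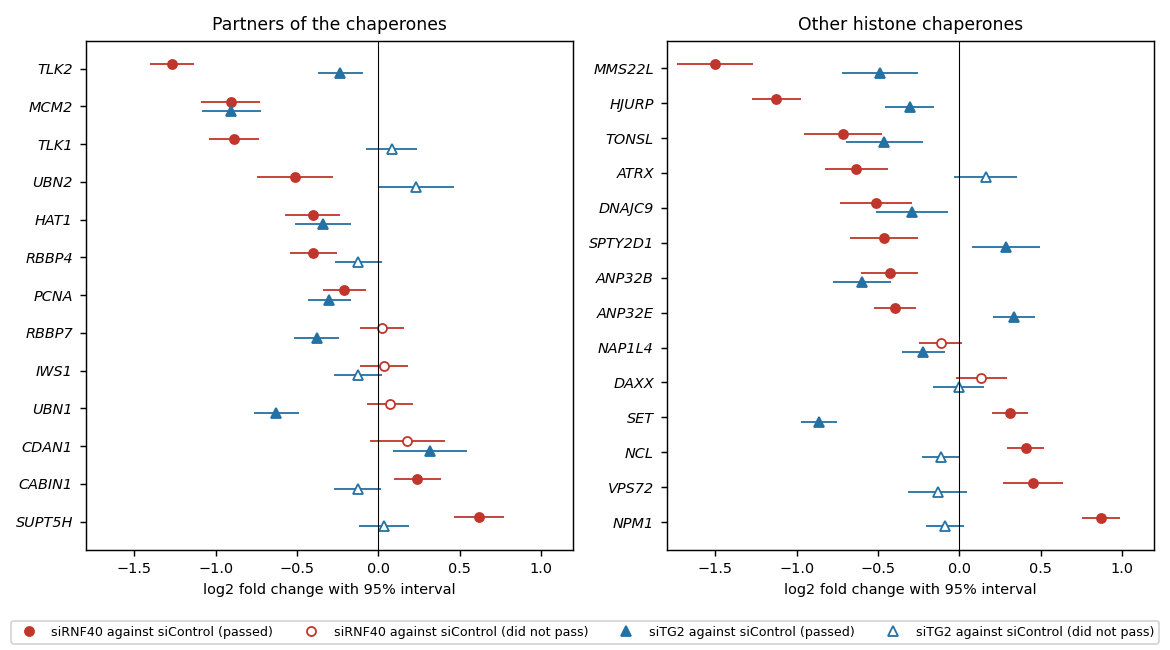
Log2 fold changes against siControl (horizontal axis) with limma's 95% intervals for 13 partner genes (left) and 14 other histone chaperones (right), in siRNF40 (red circles) and siTG2 (blue triangles), ordered by the siRNF40 value. Filled symbols passed the adjusted p threshold. MMS22L has the lowest siRNF40 value (-1.50) and SET has the lowest siTG2 value (-0.86) among the other chaperones.

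The genes whose pattern over the 9 libraries was nearest to ASF1B were sought among 11475 others with a mean of at least 100, by Euclidean distance of log2 values centred on siControl. The nearest was RNF40 itself (distance 0.432), followed by MMGT1 (0.483), ESCO2 (0.566), a cohesin acetyltransferase, ME2 (0.582), a mitochondrial malic enzyme, and FAM111B (0.637). All 5 hold the word GTCTTCA in the 3′ UTR, as ASF1B does, where 12.4% of the 12846 genes above hold it. All 5 were selected by the same libraries in which the word was picked, so this count is not independent evidence. For CHAF1A the nearest were NCAPH (distance 0.238), a condensin subunit, TUBA1B (0.249), an alpha tubulin, MBOAT1 (0.340), USP53 (0.363) and ALDH1A3 (0.380), and 2 of these 5 hold the word. These distances describe 9 libraries and carry no test.

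The authors' deposited table for siRNF40 gives log2 fold changes of -2.35 for ASF1B, -1.09 for CHAF1A and 0.79 for NAP1L1. In the authors' deposited tables the adjusted p is under the threshold for the same 7 genes in siRNF40 and the same 6 in siTG2, with SSRP1 in siTG2 next at 0.053.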

How the data were processed

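The submitters' processing notes name Trim Galore 0.4.1, STAR 2.7.0, HTSeq 0.12.4 and DESeq2, with genome builds hg19 and hg38. Strand setting and annotation are not given in the sources used here. The main deposited table is a signal, gene counts over a library size factor, with hg19 coordinates. All values (100%) lie within 0.001 of a whole read after division by the step of their column. The columns marked NC were taken as siControl. Tables of log2 fold changes with their standard errors, Wald statistics (a score, not used) and p-values for each knockdown against siControl were also deposited.

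All 9 libraries entered 1 limma 3.58.1 fit (R 4.3.3) with an intensity trend on log2(value + 1) and 3 group means. Genes with a mean of at least 10 were tested, two-sided. The scripts were tested on simulated data. Alternatives were a pseudocount of 10, no filter, equal totals, quantile normalization, edgeR 4.0.16 and DESeq2 1.42.0 on recovered reads, the 6 libraries compared, a replicate block and each library left out.

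All 10 chaperone genes, RNF40 and TGM2 are named. From each of the 2 further lists, up to 3 called genes with the largest change per contrast are named, and for the gene that changed most in each knockdown the 5 of nearest pattern, without pseudogene, antisense and clone names. SET in siRNF40, RBBP4, MCM2 between the knockdowns, the genes that overlap a chaperone gene and the markers singled out were chosen after their values were seen. The genes, lists and the word GTCTTCA were chosen with earlier results of these data known. Promoters came from RefSeq (GRCh38.p14), with all 10 genes matched by symbol. Transcripts came from GENCODE 29, 1 per gene with the longest coding sequence, matched by gene ID.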

Additional observations from a re-analysis of the deposited data

How the results depend on the processing

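Over 17 alternatives for each of 30 log2 fold changes of the 10 chaperone genes, 489 of 510 values kept their direction and their side of the threshold, 9 lost a call without a change of sign, 2 gained one without a change of sign (SSRP1) and 10 changed sign. Of those 10, the 2 SUPT16H values between the knockdowns with equal totals and quantile normalization also gained a call. Some alternatives leave a log2 fold change as it was by construction, so they could change a call but not a sign. They are no filter, the 6 libraries compared, the replicate block and leaving out a library of the group not compared. The 6 lower calls and 1 higher call in siRNF40 against siControl were counted under every alternative. In siTG2 against siControl 5 to 7 chaperone genes were lower and 0 higher, with 5 lower under equal totals and under quantile normalization. Between the knockdowns 4 to 6 were lower and 1 to 3 higher in siRNF40. With equal totals, all genes called in siTG2 against siControl numbered 3872 higher and 1890.0 lower, in place of 2263 and 3270.0, and 1 chaperone gene in place of 3 was higher in siRNF40 than in siTG2. Values that changed sign with equal totals were ASF1A (0.0385) and SUPT6H (0.0391) in siTG2 against siControl, and SUPT16H (-0.15) and SUPT6H (-0.0305) between the knockdowns. With quantile normalization they were ASF1A (0.0137), SSRP1 (0.0481) and SUPT6H (0.0615) in siTG2 and SUPT16H (-0.15) between the knockdowns. SUPT16H between the knockdowns was also -0.0041 by edgeR and ran from -0.000558 to 0.0461 when each library was left out. The causes were not tested. The labels do not say that replicate numbers mark a shared batch, and same-numbered libraries had correlations of deviations from -0.32 to 0.26 over 9 pairs, against -0.25 to 0.25 over other pairs, so the numbers were not taken to pair samples. With the replicate block, calls numbered 3693 higher and 4042 lower in siRNF40 and 2122 and 3042 in siTG2, and none of the 10 genes changed its call. In siTG2 the further list of 14 chaperones then had 6 lower and 1 higher, in place of 7 and 2, and the partners 6 lower and 0 higher, in place of 6 and 1. HIRA had the fewest counts of the 10, at 174 to 316, and the part of depth in its spread was not tested.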
